A study of Mus musculus with 24 samples.

Results

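The proteins of the cytosolic ribosome are each encoded by 1 gene, or by a few, and the mouse genome carries many near-identical processed copies of those genes. The members were chosen by symbol, as Rpl or Rps followed by a number, or Rplp0, Rplp1, Rplp2 and Rpsa, and 89 of the 55291 symbols in the table match. Of these, 77 encode the core proteins of the ribosome, 43 of the large subunit, 31 of the small subunit and 3 of the stalk. Another 6 are coding paralogs (Rpl3l, Rpl7l1, Rpl10l, Rpl22l1, Rpl39l and Rps27l). The last 6 have a member's symbol but are annotated as pseudogenes in GENCODE M21 (Rps3a2, Rps3a3, Rps4l, Rps12l1, Rpl6l and Rpl32l). Coordinates are on GRCm38 (mm10) throughout.

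The series asks how natural variation in mice of wild origin bears on the response to endotoxin. It has 6 groups of 4 bulk RNA-seq libraries, 24 in all, from dendritic cells grown from the bone marrow of individual mice for 7 days with the cytokine GM-CSF at 20 ng/ml. The groups are PWD with LPS and PWD untreated, C57 with LPS and C57 untreated, and B6 with LPS and B6 untreated; LPS, the lipopolysaccharide of Escherichia coli, was given at 10 ng/ml for 6 hours. PWD is an inbred strain of Mus musculus musculus origin, while the sources used here do not say what sets C57 apart from B6, nor the ages of the mice. All values are TPM, transcript abundance per length scaled to 1000000 per library, which keep no record of read depth.

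A ribosome joins a small subunit, which decodes mRNA, to a large subunit, which forms the peptide bond, and the acidic stalk of the large subunit recruits elongation factors. Because the proteins are needed in equal numbers, their mRNAs are made at high and similar levels, and most begin with a C followed by a run of pyrimidines, the 5' terminal oligopyrimidine (TOP) tract, through which the kinase mTORC1 and the protein LARP1 set their translation and stability. In dendritic cells, activation through Toll-like receptors is known to raise protein synthesis first and to limit it later, while mRNAs of cytokines and antigen presentation take a growing share of the transcriptome.

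The TOP start can be read in the promoters of RefSeq (GRCm38.p6), which had an entry for 57 of the 77 core genes. At the annotated start itself, a C followed by 4 pyrimidines stood in 13 of the 57 (22.8%), against 813 of all 27025 genes with an entry (3.01%). With 5 bases of tolerance on either side, the shares were 47.4% of the core genes and 21.2% of all. The next 6 windows run from 25 bases before the start to 15 bases after it and show the start of 6 core genes, 4 with a pyrimidine run at the annotated start, in capitals, and Rpsa and Rpl24 without one there.
Rps6, chr4:86857353-86857392, - strand: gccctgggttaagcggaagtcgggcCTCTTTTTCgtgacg
Rps10, chr17:27635230-27635269, - strand: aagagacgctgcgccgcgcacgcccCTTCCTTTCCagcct
Rps18, chr17:33955651-33955690, - strand: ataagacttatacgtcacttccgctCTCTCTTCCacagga
Rpl28, chr7:4792940-4792979, + strand: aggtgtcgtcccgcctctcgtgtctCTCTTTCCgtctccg
Rpsa, chr9:120127741-120127780, + strand: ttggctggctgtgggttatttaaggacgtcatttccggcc
Rpl24, chr16:55966250-55966289, + strand: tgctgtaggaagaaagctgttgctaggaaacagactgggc
Rpsa, the small-subunit protein also known as a laminin receptor precursor, has an annotated first base of A, and Rpl24, which makes a bridge between the subunits, has G. RefSeq marks 1 start for each of these genes, and a start used in these cells can lie some bases away.

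Upstream, in windows from 250 bases before to 50 after the start and on either strand, the letters CCGGAAG, bound by GABP and other ETS factors, occurred in 24 of the 57 core promoters (42.1%), against 9.93% of all genes. The palindrome CTCGCGAG occurred in 7 (12.3%), against 1.04% of all. The Sp1-type letters GGGCGG occurred in 61.4%, against 38.2%, the YY1-type letters AAGATGGC in 8.77%, against 3.19%, and the E-box CACGTG, which Myc binds, in 10.5%, against 8.09%. The TATA box letters TATAAA occurred in 10.5%, against 15.7% of all genes. Motifs may share bases at their ends, CCGGAAG and AAGATGGC the letters AAG at most, and a gene counts once for each motif it holds. The 150 bases before the start of Rps6 hold CCGGAAG and the palindrome, with the letters in capitals.
Rps6, chr4:86857368-86857517, - strand: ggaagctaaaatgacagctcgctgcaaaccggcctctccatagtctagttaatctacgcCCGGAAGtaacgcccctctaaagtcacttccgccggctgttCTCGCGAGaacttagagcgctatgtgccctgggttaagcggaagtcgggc
A match describes the letters in the window only, and a longer or shorter form of a motif gives other counts; the palindrome was shortened to these letters after a longer form had been searched.

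The core mRNAs were among the most abundant in every group. The core genes held 9 of the 100 most abundant places in PWD with LPS and 16 in untreated PWD, 5 and 19 in C57, and 10 and 32 in B6. By mean over the 24 libraries, the highest were Rpl41 (1481 TPM), the shortest ribosomal protein, Rps27 (1335 TPM), the stalk gene Rplp1 (1323 TPM), Rps29 (1208 TPM) and Rps28 (1020 TPM). The lowest core genes were Rpl21 (234 TPM), the X-linked Rpl36a (245 TPM), Rpl27a (267 TPM), Rpl35 (288 TPM) and Rpl37 (289 TPM). The median core gene stood at 433 TPM in PWD with LPS and 562 TPM in untreated PWD, at 487 TPM in C57 with LPS and 625 TPM in untreated C57, and at 593 TPM in B6 with LPS and 815 TPM in untreated B6. The highest core gene stood 17.8 and 11.3 times above the lowest in PWD (LPS and untreated), and 5.19 to 6.03 times above it in the 4 groups of C57 and B6. In PWD the lowest was Rps26, a protein at the mRNA exit of the small subunit, at 82.6 TPM with LPS and 142 TPM untreated; its group mean in the other strains was 462 TPM or more. Within a group, the replicate libraries varied around their mean by a median coefficient of variation of 3.49% (untreated C57) to 9.85% (C57 with LPS). The paralogs known from other tissues were near 0: Rpl10l, of the testis, is listed at 0 in all libraries, Rpl39l, also of the testis, averaged 0.735 TPM, and Rpl3l, of striated muscle, 0.796 TPM. Of the 89 members, 86 reached 1 TPM in at least 4 libraries and were tested, and Rpl10l, Rps12l1 and Rpl32l did not.

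**Figure D1:**
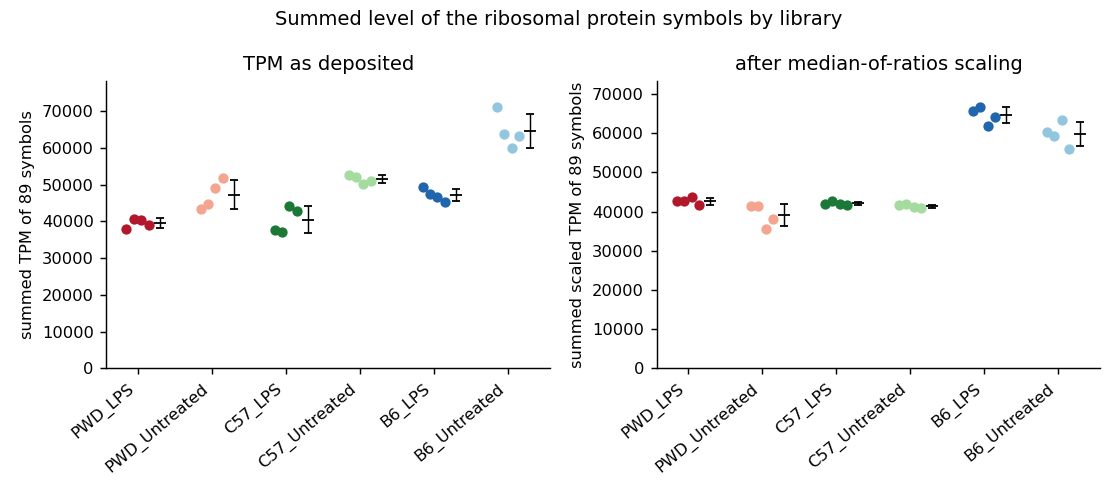
Summed TPM of the 89 members in each library (points) with the mean and SD of each group, as deposited (left) and after median-of-ratios scaling (right). As deposited, the LPS libraries of each strain lie below the untreated ones and untreated B6 lies highest, between 59900 and 71030 TPM. After scaling, LPS and untreated libraries overlap in C57 and B6, and B6 stays highest. In PWD the scaled LPS libraries lie above the untreated ones without overlap.

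The libraries differ in makeup in ways that bear on these levels. Structural RNA was summed over 6058 symbols of small and structural RNA types. Among them were mitochondrial rRNA and tRNA, rRNA, snRNA, snoRNA, miRNA, 7SL, 7SK and the RNAs of RNase P and RNase MRP. The sum made up 32.0% to 47.2% of TPM. It was 45.9% and 44.1% in replicates 1 and 2 of untreated PWD but 33.7% and 32.0% in replicates 3 and 4, and 45.9% and 47.0% in replicates 1 and 2 of C57 with LPS but 37.4% and 39.0% in 3 and 4. Of 10 conventional dendritic cell markers, Itgax averaged 238 to 340 TPM in each group and Flt3 stayed under 1 TPM in every group mean. The summed list ran from 3882 to 6753 TPM in PWD, 2970 to 4119 TPM in C57 and 8314 to 11080 TPM in B6. Most of that sum was Cd74, H2-Aa and H2-Ab1, at means of 5790, 1894 and 1473 TPM in untreated B6. Itgax was higher in PWD than in B6 with LPS (324 against 238 TPM) and lower untreated (321 against 340 TPM). The summed level of 10 neutrophil markers was lower with LPS than without in PWD (767 to 1202, against 1701 to 2876 TPM) and in B6 (1047 to 1306, against 1523 to 1762 TPM), and overlapped in C57 (1430 to 2769, against 2288 to 3883 TPM). Of the 10 neutrophil markers, 8 to 10 reached 1 TPM in each group. The 9 markers of mast cells, basophils and eosinophils summed to 82.3 to 198 TPM in PWD and to 29.5 TPM or less elsewhere. The 10 markers of macrophages and monocytes, each at 1 TPM or more in every group, summed to 751 to 902 TPM in PWD, 1241 to 1557 TPM in C57 and 1540 to 2214 TPM in B6, and in B6 they were lower with LPS (1540 to 1607 TPM) than without (1716 to 2214 TPM). Markers of T, NK and B cells summed to 7.67 TPM or less and those of erythroid and stromal cells to 16.0 TPM or less. The part of these lists in the results below was not tested.

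After 6 hours of LPS, ribosomal protein mRNAs took a smaller share of the transcriptome in all 3 strains. In PWD the members summed to 37920, 40730, 40390 and 38920 TPM with LPS, against 43390, 44580, 49070 and 51860 TPM without. In C57 they summed to 37770, 36990, 44220 and 42820 TPM with LPS, against 52630, 52110, 50250 and 51040 TPM without. In B6 they summed to 49320, 47410, 46490 and 45340 TPM with LPS, against 71030, 63860, 59900 and 63260 TPM without. The groups did not overlap in any strain. As a percentage of the TPM of protein-coding genes alone, the members took 7.28% to 7.46% with LPS, against 8.01% to 8.73% without, in PWD; 7.35% to 7.41%, against 8.85% to 9.0%, in C57; and 8.47% to 9.29%, against 11.2% to 12.0%, in B6. In bulk samples, fewer cells of a type and less RNA per cell cannot be told apart.

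In the fit over all 13246 genes (limma, adjusted p under 0.05), LPS lowered 59 members in PWD and raised 0 of 86, lowered 73 and raised 1 in C57, and lowered 80 and raised 0 in B6. Most of this was shared with the transcriptome: 52.4%, 52.2% and 59.7% of all genes were called lower in PWD, C57 and B6, 11.1%, 10.4% and 11.9% higher, and 63.5%, 62.5% and 71.6% in either direction, and the median change of the members was -0.27, -0.34 and -0.46 on the log2(TPM + 1) scale, against -0.32, -0.32 and -0.43 for all genes. Fold changes of all kinds below are on that scale. Under median-of-ratios scaling, in which the median gene shows no change, calls in PWD and B6 turned to mostly higher, while in C57 more stayed lower than higher: 30 members were higher and 6 lower in PWD (26.9% and 26.2% of all genes), 9 higher and 16 lower in C57 (25.3% and 25.7%) and 26 higher and 3 lower in B6 (31% and 30.4%). The summed levels scaled in that way were 41610 to 43710 with LPS, against 35640 to 41490, in PWD, 41640 to 42700, against 40980 to 41850, in C57, and 61830 to 66640, against 56070 to 63360, in B6. So the fall of the members in TPM was of the size of the fall of the median gene, and what set members apart from each other is read below against the core's own median. In PWD the count of members lowered was 24 with replicates 1 and 2 alone and 66 with replicates 3 and 4 alone. In C57 it was 74 and 42, and in B6 78 with either pair. Structural RNA differed by replicate in untreated PWD and in C57 with LPS, and ran from 37.0% to 47.2% in untreated B6 as well. Its part in these counts was not tested.

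Within the family the fall was uneven, and part of the core lay to the same side of its median in all 3 strains. Of the 77 core genes, 23 lay below the core median in each strain, among them Rpsa, Rps2, Rps4x, Rps6, Rps7, Rps16, Rps19, Rpl3, Rpl4, Rpl5, Rpl12, Rplp0 and Rplp1. Another 22 lay above it in each, among them Rpl23, Rpl24, Rpl26, Rpl34, Rpl37a, Rpl38, Rpl39, Rpl41, Rps21, Rps25, Rps27, Rps28 and Rps29. Over the 77 genes the change with LPS correlated between strains with Pearson's r = 0.669 for C57 and PWD, 0.557 for B6 and PWD and 0.55 for B6 and C57 (Spearman's rho 0.672, 0.502 and 0.402). These strains share no libraries, but genes are not independent replicates and share length, base composition and start of transcription between strains, so these are descriptions. In all, 56 of 86 members were called lower in all 3 strains, against 39.3% of all genes.

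**Figure D2:**
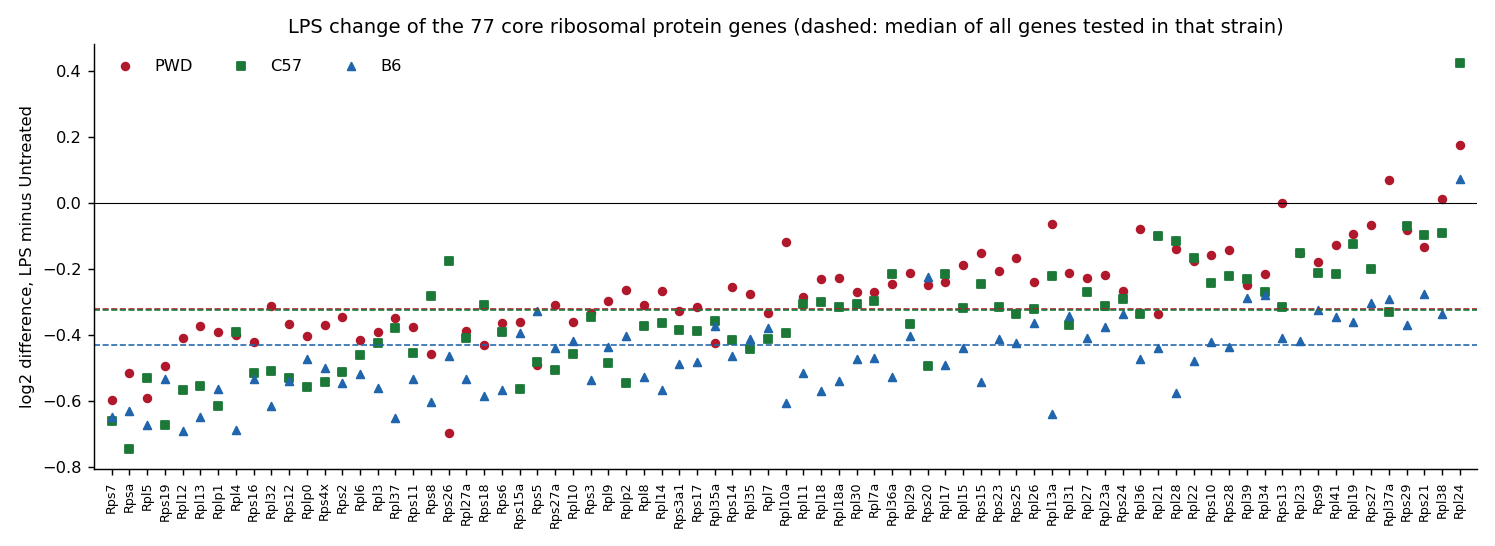
Change with LPS of the 77 core genes on the log2(TPM + 1) scale, ordered by their mean change, in PWD (circles), C57 (squares) and B6 (triangles); dashed lines mark the median of all genes in each strain. Rps7 and Rpsa lie low in each strain and Rpl24 high; the low PWD point of Rps26 comes from groups whose libraries overlap.

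Rpsa fell most among small-subunit genes in C57, to 389, 387, 459 and 466 TPM with LPS, against 730.4, 745, 667 and 702 TPM without. In PWD it stood at 567, 608, 618 and 585 TPM with LPS, against 724, 744, 977 and 984 TPM without. In B6 it stood at 732, 676, 642 and 620.3 TPM with LPS, against 1185, 1063, 880.2 and 1019 TPM without. No LPS library reached an untreated one in any strain, and the changes were -0.51 (SE 0.10, adjusted p = 0.0001) in PWD, -0.75 (SE 0.10, adjusted p = 7.98e-07) in C57 and -0.63 (SE 0.10, adjusted p = 4.61e-06) in B6 by limma with Benjamini-Hochberg adjustment over all genes. All adjusted p below come from that fit unless another test is named.

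Rps7, a small-subunit protein that binds the p53 regulator MDM2, averaged 345 ± 16.4 TPM with LPS and 526 ± 86.7 TPM without in PWD (SD, n = 4 each). It averaged 341 ± 32.8 and 538 ± 23.3 TPM in C57, and 471 ± 43.4 and 739.8 ± 92.3 TPM in B6, LPS first. Its changes were -0.60, -0.66 and -0.65 in PWD, C57 and B6, all called. Rps19, whose human counterpart is the gene most often mutated in Diamond-Blackfan anaemia, averaged 439 ± 49.6 TPM with LPS and 697 ± 32.9 TPM without in C57, a change of -0.67 (SE 0.096, adjusted p = 1.62e-06), and in PWD it changed by -0.49 (SE 0.096, adjusted p = 8.81e-05). Relative to the median gene, under median-of-ratios scaling, Rpsa, Rps7 and Rps19 were still called lower in C57 (changes of -0.37, -0.28 and -0.30) and in PWD (-0.13, -0.21 and -0.11), and none of them in B6. These values leave out pseudogene copies. In PWD, copies of Rps19 averaged 308.6 TPM with LPS and 290 TPM untreated, beside 456.2 and 646.1 TPM on Rps19 itself. Whether Rps19 and its copies together fell against the median gene in PWD was not tested.

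Rps6, the substrate of the S6 kinases below mTORC1, had 443, 479, 496 and 460.0 TPM with LPS, against 528, 560.1, 650.4 and 692 TPM without, in PWD. In C57 it had 501, 495, 599.8 and 582 TPM with LPS, against 732, 750.2, 667 and 697 TPM without, and in B6 643, 592, 588 and 591 TPM with LPS, against 1025, 912, 779 and 873 TPM without. The LPS libraries lay below all untreated ones in each strain. Rps6 has a TOP run at its annotated start and Rpsa has none, and both lay below the core median in each strain.

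Among large-subunit genes, Rpl5, which carries the 5S rRNA into the ribosome together with Rpl11, fell to 252, 252, 262 and 239.7 TPM in PWD with LPS, against 331, 328, 437 and 435 TPM untreated, a change of -0.59 (SE 0.11, adjusted p = 3.5e-05). In B6 it had 340.4, 273, 332 and 292 TPM with LPS, against 561, 520.0, 402 and 496 TPM untreated (-0.67; under median-of-ratios scaling -0.11, adjusted p = 0.0712). The groups did not overlap in either strain. Rpl4, which lines the exit tunnel for the nascent chain, changed by -0.69 (SE 0.084, adjusted p = 5.77e-08) in B6, with 355 ± 17.5 and 574 ± 58.1 TPM with and without LPS. Rpl12, at the base of the stalk, changed by -0.69 (SE 0.095, adjusted p = 4.47e-07) in B6, with 327 ± 15.4 and 528 ± 50.6 TPM. Rpl11 averaged 409 ± 7.35 and 499 ± 9.0 TPM in PWD, 368 ± 33.1 and 453 ± 13.8 TPM in C57, and 403 ± 17.8 and 576 ± 37.2 TPM in B6, with LPS and without.

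The stalk genes were called lower with LPS in every strain, 3 of 3 each time. Rplp1, the most abundant of them, had 1112, 1234, 1219 and 1149 TPM with LPS, against 1429, 1427, 1648 and 1685 TPM untreated, in PWD, 898, 868, 1068 and 1004, against 1488, 1439, 1502 and 1433 TPM, in C57, and 1144, 1091, 1165 and 1101, against 1826, 1636, 1519 and 1675 TPM, in B6. In none of the strains did an LPS library reach an untreated one.

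Rpl24 went the other way in C57, where it was the 1 member called higher. It had 443, 418, 512 and 464 TPM with LPS, against 351, 357, 329.7 and 328 TPM untreated, with no overlap, and changed by 0.42 (SE 0.080, adjusted p = 6.45e-05). In PWD it had 308, 311, 307 and 313 TPM with LPS, against 276, 277, 260.4 and 284 TPM untreated, and in B6 451, 516, 421 and 490.3 TPM with LPS, against 508, 431, 455 and 395 TPM untreated. The changes of 0.18 (SE 0.080, adjusted p = 0.0573) in PWD and 0.07 (SE 0.080, adjusted p = 0.429) in B6 did not pass the test, although the PWD groups did not overlap. Relative to the median gene, under median-of-ratios scaling, Rpl24 was called higher in each strain, by 0.56 in PWD, 0.80 in C57 and 0.63 in B6.

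Genes that work with the ribosomal proteins were followed in lists that were written with earlier results of these data known. Most genes of the transcriptome were called lower with LPS in each strain (52.4% in PWD, 52.2% in C57 and 59.7% in B6). Called higher were 11.1%, 10.4% and 11.9%. Under median-of-ratios scaling, 26.2%, 25.7% and 30.4% of all genes were lower and 26.9%, 25.3% and 31% higher. The counts of each list are to be read against the shares of the same scaling. In PWD, C57 and B6, the other TOP mRNAs (elongation factors, Npm1 and the like, 23 tested) were called lower in 19, 20 and 22, and higher in 0 each time; their median change was -0.43, -0.39 and -0.65, and median-of-ratios scaling gave 8, 5 and 9 lower and 6, 3 and 5 higher. Of 22 chaperones and late assembly factors of ribosomal proteins, 16, 14 and 19 were lower and 2, 1 and 1 higher (medians -0.43, -0.37 and -0.77), and after that scaling 9, 7 and 15 lower and 5, 6 and 4 higher. Tsr1, which matures the small subunit, averaged 15.8 ± 1.78 TPM with LPS and 39.1 ± 6.14 TPM without in PWD, 11.6 ± 1.1 and 25.8 ± 0.673 TPM in C57, and 6.17 ± 0.234 and 29.8 ± 2.38 TPM in B6 (log2 changes -1.24, -1.10 and -2.10, each called). Of 16 genes of mTORC1 and S6 signalling, 12, 10 and 13 were lower and 0, 1 and 1 higher, and after scaling 4, 5 and 7 lower and 3, 4 and 3 higher. Eif4ebp2, a repressor of cap-dependent initiation, changed by -1.07, -1.41 and -1.45. Of 25 translation factors, 20, 12 and 18 were lower and 0 higher, in C57 a smaller share than of all genes, and after scaling 4, 3 and 5 were lower and 6, 12 and 9 higher.

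Of 12 genes for Myc and the transcription factors of ribosomal protein genes, 7, 6 and 8 were lower and 0, 3 and 3 higher in PWD, C57 and B6, shares near those of all genes; after scaling 5, 3 and 5 were lower and 4, 6 and 4 higher. Myc, a driver of ribosome production, averaged 14.9 ± 1.06 TPM with LPS and 41.5 ± 3.2 TPM without in PWD, 20.9 ± 5.25 and 35.1 ± 2.04 TPM in C57, and 5.26 ± 0.143 and 32.7 ± 1.74 TPM in B6 (log2 changes -1.42, -0.75 and -2.43). Of the 29 small-subunit proteins of the mitochondrial ribosome, 22, 21 and 27 were lower and 0 higher, and after scaling 8, 7 and 11 were lower and 3, 2 and 3 higher. Of its 49 large-subunit proteins, 33, 34 and 42 were lower and 2, 0 and 0 higher, and after scaling 12, 13 and 21 were lower and 9, 10 and 10 higher. Rack1, a scaffold on the small subunit whose symbol lies outside the pattern, changed by -0.57, -0.49 and -0.61.

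Between the strains, B6 stood highest. In untreated cells, 57 of 86 members were called lower in C57 than in B6 and 0 higher, where 6.92% of all genes were called lower and 31.9% higher (38.8% in all). With LPS, 39 were lower and 1 higher, the paralog Rpl7l1 (0.28, adjusted p = 0.0484), against 9.69% and 49.1% of all genes (58.8% in all). The LPS split was 5 higher and 35 lower under quantile normalization, and 8 higher and 14 lower with replicates 3 and 4 alone, against 0 and 55 with replicates 1 and 2. The median member differed by -0.29 untreated and -0.18 with LPS, on a transcriptome whose median gene differed by 0.17 and 0.29, and all 77 core genes lay below the median gene in both treatments. Under median-of-ratios scaling, 78 and 81 of the members were called lower in C57 and 0 higher, where 19.1% and 28.7% of all genes were lower and 20.5% and 28.4% higher. Beside it, the summed dendritic cell markers, mostly Cd74, H2-Aa and H2-Ab1, were lower in C57 than in B6. So were the macrophage and monocyte markers. The neutrophil markers summed higher in C57, at 2288 to 3883 against 1523 to 1762 TPM untreated. With LPS they summed to 1430 to 2769 against 1047 to 1306 TPM. The part of these lists was not tested.

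Rps27, a zinc finger protein of the small subunit, had 1225, 1258, 1166 and 1202 TPM in untreated C57, against 2012, 1909, 1692 and 1681 TPM in untreated B6, without overlap. It differed by -0.58 (SE 0.079, adjusted p = 1.73e-06). Rpsa had 711 ± 34.5 TPM in untreated C57 and 1037 ± 126 TPM in untreated B6, a difference of -0.54 (SE 0.10, adjusted p = 0.000145). Rpl37 had 347 ± 13.2 TPM in untreated C57 and 503 ± 44.3 TPM in untreated B6, a difference of -0.53 (SE 0.11, adjusted p = 0.000515). With LPS, Rpsa differed by -0.65 (SE 0.10, adjusted p = 4.59e-06), Rps20 by -0.71 (SE 0.11, adjusted p = 2.75e-06) and the stalk base protein Rplp0 by -0.54 (SE 0.12, adjusted p = 0.0003), the 3 largest falls there. The balance of the subunits was not tested: the summed large-subunit and stalk genes stood at 1.22 to 1.27 times the small-subunit genes in the 8 libraries of C57 and at 1.16 to 1.18 times in the 8 of B6, and at 1.17 to 1.21 times in those of PWD.

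PWD differed from B6 in size and in kind. In untreated cells 68 members were called lower and 3 higher in PWD than in B6, where 19.7% of all genes were called lower and 37.2% higher (57% in all). With LPS 47 were lower and 10 higher, against 19% and 49.7% of all genes (68.6% in all). The median member differed by -0.38 and -0.24, while the median gene differed by 0.14 and 0.28. Median-of-ratios scaling gave 77 and 74 lower, and 3 higher in both, where 30.3% and 34.2% of all genes were lower and 31.3% and 35.4% higher. Quantile normalization moved the split the other way, to 8 higher and 63 lower untreated and 23 higher and 37 lower with LPS. Beside this, the dendritic cell markers, mostly Cd74, H2-Aa and H2-Ab1, and the macrophage and monocyte markers summed lower in PWD than in B6. The mast cell, basophil and eosinophil markers summed higher, as given above. The part of these lists was not tested. Both PWD and C57 were set against the same B6 libraries.

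The largest falls in PWD were in single genes and went well past the median of the family. Rps26 had 88.8, 102, 200.1 and 176 TPM in untreated PWD, against 778, 717, 676 and 651 TPM in untreated B6 (-2.39, SE 0.17, adjusted p = 9.68e-12). Rps3a1, a protein near the mRNA exit of the small subunit, had 229, 247, 289.8 and 304 TPM in untreated PWD, against 993, 905, 818 and 897 TPM in untreated B6 (-1.76, SE 0.089, adjusted p = 1.26e-15). Rpl37, a zinc-binding protein of the large subunit, had 127, 156, 198 and 186 TPM in untreated PWD, against 558, 507, 450.3 and 496 TPM in untreated B6 (-1.60, SE 0.11, adjusted p = 1.54e-12). Rpl35a, whose human counterpart is another gene of Diamond-Blackfan anaemia, differed by -1.60 (SE 0.074, adjusted p = 1.98e-16). Every PWD library lay below every B6 library for these genes, and with LPS Rps26, Rps3a1, Rpl37 and Rpl35a differed by -2.62, -1.60, -1.30 and -1.65. The 3 members called higher in untreated PWD were all annotated pseudogenes. Rps3a3 had 223, 232, 317 and 325 TPM in untreated PWD, against 1.66, 1.37, 1.28 and 1.98 TPM in B6 (6.73), Rps3a2 297, 309, 346 and 377 TPM, against 10.3, 10.3, 12.7 and 12.2 TPM (4.75), and Rpl6l 25.5, 28.7, 28 and 32.7 TPM, against 0.878, 0.867, 1.06 and 0.994 TPM (3.93). A pseudogene that fell was Rps4l, listed at 0.409, 0, 0.144 and 0.164 TPM in untreated PWD, against 5.54, 6.83, 6.76 and 3.84 TPM in untreated B6 (-2.50).

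Genes that were lower in PWD and copies that were higher have nearly the same sequence. Rps3a2 (chr14:88123017-88123808, - strand) matches the coding sequence of Rps3a1 (chr3:86137940-86142702, - strand) at 788 of 792 aligned bases (99.49%), with the substitutions T216C, T534C, A645T and T668C, counted from the first base of the Rps3a1 coding sequence. Rps3a3 (chr13:108670603-108671397, + strand) matches it at 786 of 795 bases (98.87%), with 9 substitutions, of which T216C and T534C are shared with Rps3a2. Rps26-ps1 (chr8:107439131-107439579, - strand) matches the coding sequence of Rps26 (chr10:128624534-128626747, - strand) at 346 of 348 bases (99.43%), with C30T and G270A. The windows below, bases 201 to 260 of the Rps3a1 coding sequence and 1 to 60 of that of Rps26 in the reference genome, show in capitals the positions at which any of the compared sequences differ.
Rps3a1: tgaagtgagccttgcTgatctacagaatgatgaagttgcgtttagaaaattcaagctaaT
Rps3a2: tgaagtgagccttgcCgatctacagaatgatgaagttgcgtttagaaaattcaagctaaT
Rps3a3: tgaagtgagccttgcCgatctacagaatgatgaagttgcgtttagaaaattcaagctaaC
Rps26: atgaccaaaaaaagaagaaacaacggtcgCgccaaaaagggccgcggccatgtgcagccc
Rps26-ps1: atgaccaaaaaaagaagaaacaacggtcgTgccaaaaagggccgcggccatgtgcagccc
The reference genome is that of a C57BL/6J mouse, and whether the PWD alleles carry these bases was not tested, since the files hold no reads.

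The values of such copies stood apart in PWD. Rps26-ps1 averaged 986 ± 55.6 TPM in untreated PWD and 5.96 ± 1.17 TPM in untreated B6, and 907 ± 63.8 TPM in PWD with LPS and 2.6 ± 0.843 TPM in B6 with LPS (SD, n = 4 each). Rps26 and Rps26-ps1 together averaged 1127 ± 95.5 TPM in untreated PWD, 528 ± 24 TPM in C57 and 712 ± 55 TPM in B6, so the sum was highest in the strain where the gene itself was lowest. Rps3a1, Rps3a2 and Rps3a3 together averaged 874 ± 125 TPM in untreated PWD, 753 ± 25.1 TPM in C57 and 916 ± 70.7 TPM in B6. The PWD sum lay within 1 SD of the B6 sum. The other copies highest in untreated PWD were Gm4149 of Rpl37a (513 TPM, against 15.6 in untreated B6), Rpl37rt of Rpl37 (467, against 40.8), Rps24-ps3 (456, against 22), Rps13-ps1 (409, against 3.59) and Gm8730 of Rplp0 (314, against 3.47).

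Pseudogenes were matched to a member, core or paralog, by name or by sequence. A match by sequence had 80% identity or more over 50% or more of the pseudogene transcript. Over the 1901 annotated pseudogenes matched, the summed level was 6720 to 9251 TPM in the 8 PWD libraries. It was 724 to 1264 TPM in the 16 libraries of C57 and B6. Copies at a group mean of 100 TPM or more numbered 21 in PWD with LPS and 29 in untreated PWD, and 0 or 1 in the other 4 groups. For 21 of the 77 core genes, copies held 25% or more of the TPM of gene and copies together in PWD, in each treatment, against 0 or 1 core gene elsewhere (Rpl5, at 24.7% to 27.1%). The shares were largest for Rps26 (87.4% in untreated PWD), Rpl37 (73.8%), Rps3a1 (69.4%), Rpl35a (67.9%), Rpl21 (59.5%), Rpl37a (58.6%) and Rps13 (56.3%). The difference from untreated B6 had a median of -1.05 over the 21 genes with a share of 25% or more, all called lower, -0.60 over the 15 with 5% to 25%, all called lower, and -0.27 over the 41 under 5%, of which 29 were called lower and 0 higher. With LPS the medians were -0.90 (21 of 21 lower), -0.34 (11 of 16) and -0.04 (13 lower and 7 higher of 40). The share and the difference are made from the same PWD libraries, so this is a description.

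**Figure D3:**
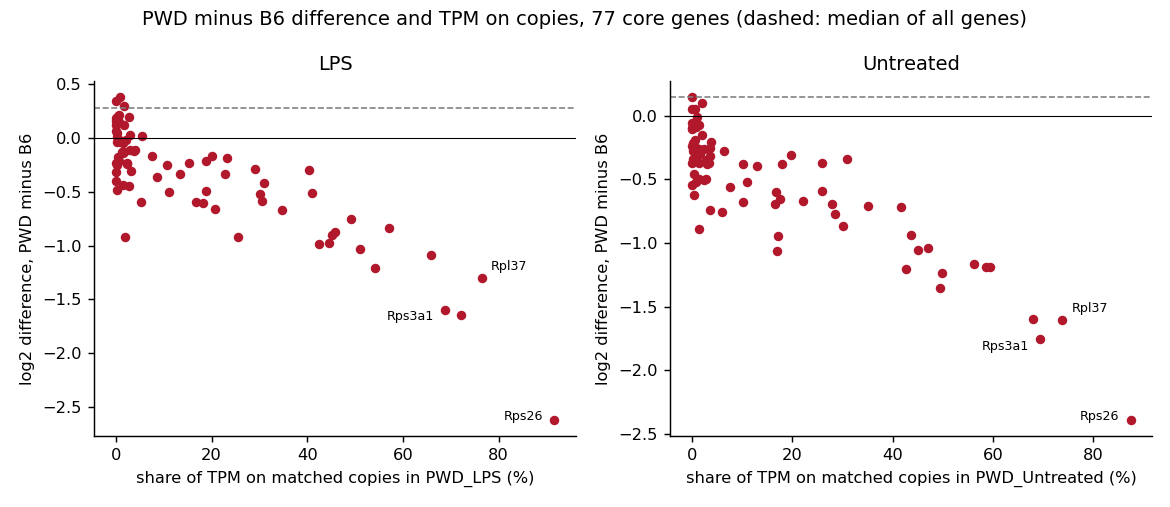
Difference between PWD and B6 in log2(TPM + 1) against the share of TPM held by matched pseudogenes in PWD, 1 point per core gene, with LPS (left) and untreated (right); the dashed line is the median of all genes. Rps26, Rpl37 and Rps3a1 hold shares of 87.4%, 73.8% and 69.4% in untreated PWD and lie among the lowest points.

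Matched copies outside the 89 members were added to each gene, an alternative chosen after seeing the data. Copies that are members themselves stayed out, so Rps3a2 and Rps3a3 were not added to Rps3a1, although the shares above count them. With these copies added, 49 of the 77 core genes were lower and 2 higher in untreated PWD than in B6 (19.6% and 37.2% of all genes). With LPS 24 were lower and 14 higher (18.8% and 49.7%), and the medians were -0.27 and -0.07. In that sum Rps26 and Rpl37 were called higher in PWD, by 0.66 and 0.23 untreated and 0.94 and 0.65 with LPS. Rpl35a then differed by 0.0088 untreated (adjusted p = 0.931) and 0.16 with LPS (adjusted p = 0.0617), and the stalk base gene Rplp0 by -0.20 in both (adjusted p = 0.128 untreated and 0.124 with LPS), so their calls were lost. The X-linked Rpl36a, whose copies held 17.2% in untreated PWD, stood at 189, 193, 183 and 195 TPM in untreated PWD, against 414, 356, 370.1 and 328 TPM in untreated B6 (-0.94, SE 0.083, adjusted p = 1.81e-10). In the other direction, Rps3, which also acts in DNA repair and binds an NF-kappaB subunit and whose copies held under 1%, had 305, 327, 334 and 294 TPM in PWD with LPS, against 254, 267, 236 and 233 TPM in B6 with LPS, without overlap (0.35, SE 0.077, adjusted p = 0.000269; under median-of-ratios scaling 0.0071, adjusted p = 0.945), and did not pass the test untreated (0.15, adjusted p = 0.109), where it passed without untreated PWD replicate 1 (0.19, adjusted p = 0.0475).

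Set against C57, PWD had members on both sides. In untreated cells 36 members were lower and 12 higher, against 26.2% and 20.1% of all genes (46.2% in all), and with LPS 30 were lower and 23 higher, against 29.8% and 24.4% (54.2% in all). With LPS the balance depended on the setting, with 34 lower and 36 higher under median-of-ratios scaling, 31 and 37 under quantile normalization, 19 and 30 with replicates 1 and 2 alone, and 39 and 14 with replicates 3 and 4 alone. The largest differences were again in genes with copies and in the copies: Rps26, Rps3a1 and Rpl35a differed by -1.96, -1.47 and -1.15 untreated, and Rps3a3, Rps3a2 and Rpl6l by 6.68, 4.71 and 4.11. Among the core genes whose copies held under 5%, 4 were lower and 8 higher untreated, and 2 lower and 17 higher with LPS. Rps3 was higher in PWD than in C57, with 398 ± 33 and 298 ± 15.7 TPM untreated (0.42, SE 0.077, adjusted p = 5.55e-05) and 315 ± 18.6 and 234 ± 16.5 TPM with LPS (0.43, SE 0.077, adjusted p = 3.26e-05). The paralog Rpl7l1 was lower, with 50.2 ± 5.92 TPM in untreated PWD and 80.2 ± 8.17 TPM in untreated C57 (-0.67, SE 0.12, adjusted p = 4.33e-05). With matched copies outside the members added, 10 core genes were lower and 17 higher untreated (26% and 20.1% of all genes), and 6 lower and 29 higher with LPS (29.6% and 24.5%).

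In TPM as deposited, the change with LPS itself differed between strains for few members. Against B6, the LPS change was called higher in PWD for 13 members and lower for 0 (16% and 7.5% of all genes), and higher in C57 for 5 and lower for 1 (10.9% and 3.39%). Between PWD and C57 it was higher in PWD for 2 and lower for 0 (5.41% and 5.99%). The median gene's change was higher by 0.14 in PWD and by 0.12 in C57 than in B6, and under median-of-ratios scaling the counts were 2 higher and 3 lower in PWD (14.9% and 16.8% of all genes), 0 and 17 in C57 (10.9% and 14.3%), and 15 and 1 between PWD and C57 (10.7% each). In either direction 23.5%, 14.3% and 11.4% of all genes were called in these comparisons as deposited. Quantile normalization and TPM without structural RNA gave more members in each comparison, with counts in the section on processing below. With replicates 1 and 2 alone, 0 members differed between C57 and B6 and 23 between PWD and B6. The 13 between PWD and B6 became 8 without B6 with LPS replicate 4 or untreated B6 replicate 1, and 24 without untreated PWD replicate 4. The 6 between C57 and B6 became 3 without B6 with LPS replicate 1 or 3, untreated B6 replicate 1, C57 with LPS replicate 3 or untreated C57 replicate 3, and 10 or 11 without B6 with LPS replicate 2, untreated B6 replicate 4 or C57 with LPS replicate 2. The 2 between PWD and C57 became 1 without C57 with LPS replicate 1 or 2 or PWD with LPS replicate 2, and 4 without untreated PWD replicate 1.

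Rpl13a, a large-subunit protein that in human monocytes leaves the ribosome to silence inflammatory mRNAs, had 641, 695, 656 and 705 TPM with LPS, against 754, 742, 643 and 684 TPM untreated, in PWD. In C57 it had 594, 550.3, 615 and 547 TPM with LPS, against 666, 662, 687 and 667 TPM untreated. In B6 it had 565, 688, 525 and 583 TPM with LPS, against 962, 844, 988 and 872 TPM untreated. The LPS libraries lay below the untreated ones without overlap in B6 and in C57, and overlapped them in PWD. The LPS change was higher than in B6 by 0.57 (SE 0.11, adjusted p = 0.000433) in PWD and by 0.42 (SE 0.11, adjusted p = 0.0123) in C57. Under median-of-ratios scaling neither call of Rpl13a held (0.39, adjusted p = 0.0876 in PWD, and 0.23, adjusted p = 0.368 in C57), and neither held with replicates 1 and 2 alone (adjusted p = 0.0767 and 0.242). Rpl10a, on the side of the large subunit where spent tRNA leaves, differed by 0.49 (SE 0.12, adjusted p = 0.00343) between PWD and B6, with 282 ± 15.1 and 306 ± 14.6 TPM in PWD and 320.1 ± 22.6 and 488 ± 36.5 TPM in B6, with LPS and without. This call held under median-of-ratios scaling (0.31, adjusted p = 0.00481).

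Rpl28, a protein of the large subunit, averaged 354 ± 17.3 TPM with LPS and 389.6 ± 20.6 TPM without in PWD, 429.5 ± 53.3 and 463 ± 27.8 TPM in C57, and 439 ± 44.2 and 655 ± 78 TPM in B6. Its LPS change was higher than in B6 by 0.44 (SE 0.13, adjusted p = 0.0152) in PWD and 0.46 (SE 0.13, adjusted p = 0.0167) in C57. Under median-of-ratios scaling both calls of Rpl28 were lost (0.25, adjusted p = 0.249, and 0.27, adjusted p = 0.234). Rpl37a, whose copies held 58.6% in untreated PWD, averaged 381 ± 12.9 TPM with LPS and 364 ± 16 TPM without in PWD, 485 ± 62.8 and 605 ± 9.21 TPM in C57, and 682 ± 63.5 and 833 ± 67.2 TPM in B6. Its LPS change differed by 0.36 (SE 0.12, adjusted p = 0.027) between PWD and B6 and by 0.40 (SE 0.12, adjusted p = 0.0258) between PWD and C57. These calls of Rpl37a were lost without any of 4 and 3 single libraries, with adjusted p up to 0.0682 and 0.0645. Median-of-ratios scaling ended the first (0.18, adjusted p = 0.143) and not the second (0.40, adjusted p = 0.00205). Against B6, C57 also differed for Rpl24 by 0.35 (SE 0.11, adjusted p = 0.0355), for Rpl21 by 0.34 (SE 0.11, adjusted p = 0.0426) and for Rpl22, which mouse T cell development needs, by 0.31 (SE 0.10, adjusted p = 0.0344). Leaving out 1 library ended the call of Rpl24 in 7 of 16 cases, of Rpl21 in 10 and of Rpl22 in 10, with adjusted p up to 0.0946, 0.106 and 0.0855. The calls were also lost under median-of-ratios scaling, at 0.17 for Rpl24 (adjusted p = 0.435), 0.15 for Rpl21 (adjusted p = 0.421) and 0.13 for Rpl22 (adjusted p = 0.616), and with the replicate block (adjusted p = 0.0721, 0.0563 and 0.0632).

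**Figure D4:**
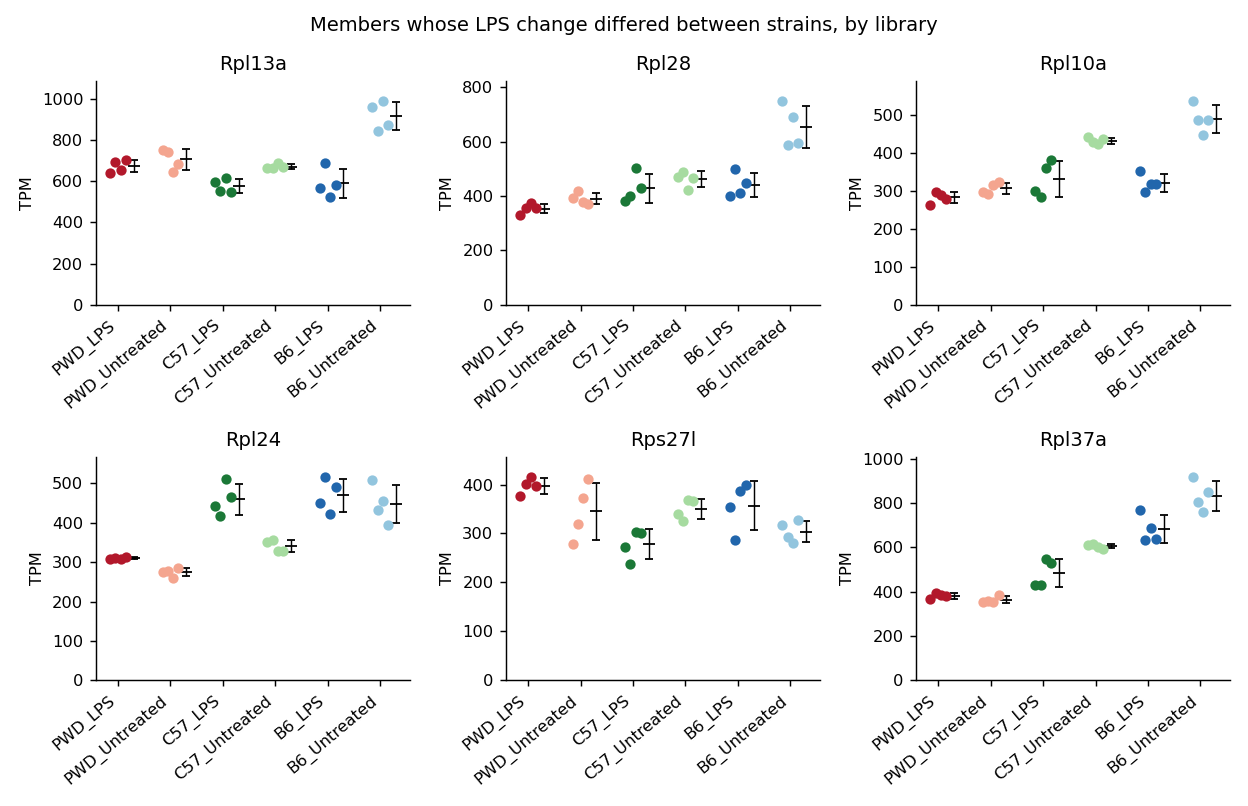
TPM of members of 10 TPM or more whose change with LPS was among the largest called differences between strains. Points are libraries, with the mean and SD of each group. Rpl13a, Rpl28 and Rpl10a stand highest in untreated B6, and Rps27l lies lower with LPS than without in C57.

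Rps27l, a paralog of Rps27 and a target of p53, was lower with LPS in C57 and not in PWD or B6, and the differences between these changes passed the test. It had 272, 238, 303 and 300.3 TPM with LPS, against 340.2, 326, 367 and 365 TPM untreated, in C57 (-0.33, SE 0.11, adjusted p = 0.00944). In PWD it had 377, 401, 415 and 396 TPM with LPS, against 279, 319.7, 372 and 411 TPM untreated (0.22, SE 0.11, adjusted p = 0.0839), and in B6 354, 287, 387 and 399 TPM with LPS, against 317, 292, 280.1 and 327 TPM untreated (0.22, SE 0.11, adjusted p = 0.0701). These last 2 changes passed the test without 1 library, untreated PWD replicate 4 (0.30, adjusted p = 0.0193) or B6 with LPS replicate 2 (0.32, adjusted p = 0.00951), and both passed with the replicate block (adjusted p = 0.0441 in PWD and 0.035 in B6). The difference of the changes was -0.55 (SE 0.15, adjusted p = 0.0146) for C57 minus B6 and 0.55 (SE 0.15, adjusted p = 0.0178) for PWD minus C57. Under median-of-ratios scaling the change within C57 was 0.04, so its fall in C57 was not seen against the median gene. The differences between the strains' changes were then -0.74 (C57 minus B6) and 0.55 (PWD minus C57) and still called. As deposited, the call for C57 minus B6 was lost with replicates 1 and 2 alone (-0.45, adjusted p = 0.13). That for PWD minus C57 was lost with replicates 3 and 4 alone (0.33, adjusted p = 0.0737).

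The balance of a paralog and its core gene was followed as a ratio of TPM for 7 pairs. Rps27l stood at 33.5% ± 0.994 of Rps27 in PWD with LPS and 27.6% ± 2.34 in untreated PWD, at 26.3% ± 2.16 and 28.9% ± 2.54 in C57, and at 24.3% ± 4.25 and 16.8% ± 1.86 in B6 (SD, n = 4 each). Rpl36al, the copy of the X-linked Rpl36a on another chromosome, stood at 140.0% ± 9.73 and 126% ± 7.99 of Rpl36a in PWD, 92.1% ± 10.7 and 88.8% ± 7.88 in C57, and 74.3% ± 5.21 and 73.3% ± 3.17 in B6. PWD was thus the strain in which this paralog exceeded its core gene in every library. Replicate 4 of C57 with LPS also did, at 104.8%. These ratios leave out the copies of Rpl36a. Such copies held 20.7% (LPS) and 17.2% (untreated) of the TPM of gene and copies in PWD, and 3.8% to 4.3% elsewhere. Copies of Rpl7, the core gene of the next pair, held 18.3% and 17.6% in PWD. Rpl7l1 stood at 12.4% ± 0.657 and 11.6% ± 0.947 of Rpl7 in PWD, 15.1% ± 0.715 and 14.4% ± 1.32 in C57, and 10.1% ± 1.54 and 10.3% ± 0.909 in B6. Rpl22l1 stood at 34.9% ± 3.75 and 38.9% ± 5.66 of Rpl22 in PWD, 36.3% ± 1.76 and 46.3% ± 2.15 in C57, and 37.9% ± 6.88 and 36.1% ± 3.32 in B6. In exact permutation tests of the log2 ratios (two-sided, 4 against 4 libraries), 23 of 63 comparisons reached 0.0286, the smallest p that 4 against 4 allows, but after Benjamini-Hochberg adjustment over the 63 the smallest p was 0.0783 and 0 passed. With that smallest p, a pair that separates fully cannot pass by itself. The adjusted test therefore cannot decide whether the ratio of a single pair differed.

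**Figure D5:**
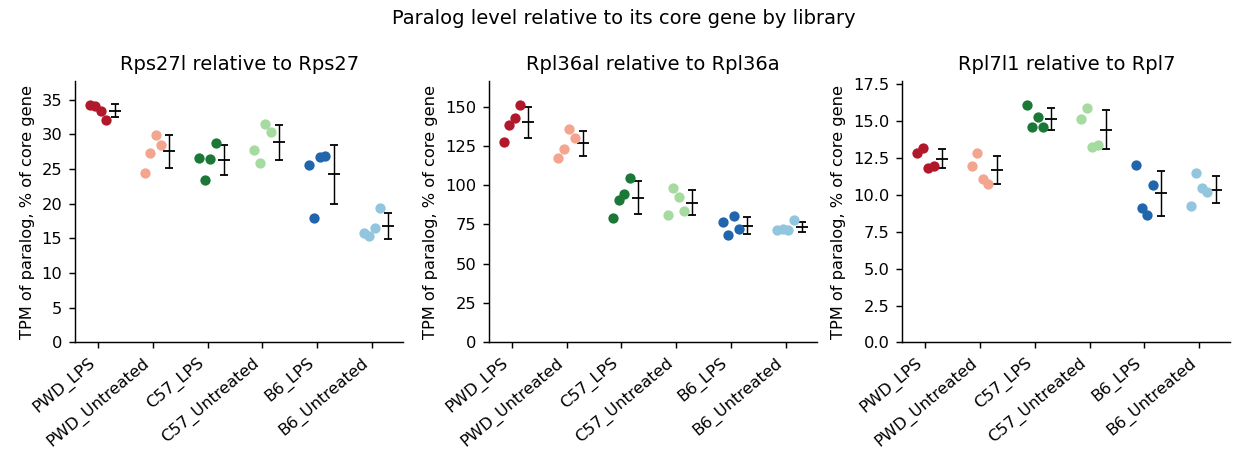
Paralog TPM as a percentage of its core gene's TPM in each library, by group, for 3 of the pairs, with the mean and SD of each group. Rpl36al exceeds Rpl36a in the PWD libraries, and Rps27l is lowest against Rps27 in untreated B6.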

How the data were processed

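Bulk RNA-seq of 24 libraries (3 strains, LPS or untreated, 4 mice each) was used. Per the labels, 1 µg of total RNA per sample went into a stranded kit. The authors deposited TPM in 1 table of 55401 rows; per the submitters' processing notes, STAR and mm10 were used, with no version named. No source used here gives the annotation, the counting or how TPM were made. Read depth cannot be had from TPM, so depth and counting error are unknown. Symbols on several lines were summed (110 lines).

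The 13246 genes that reached 1 TPM in 4 libraries or more were fitted as log2(TPM + 1) with limma 3.58.1 in R 4.3.3: 6 group means, empirical Bayes with trend and robust, two-sided, Benjamini-Hochberg over all genes, calls under 0.05, 12 comparisons. The fit was run on simulated data with independent noise and known changes in some genes. That run held no shift of the whole transcriptome, so it does not bear on the choice of scaling. Pseudogenes were matched to members by name (318) or with BLAST 2.17.0 (1901 in all). Tables were made with Python 3.11.15, pandas 2.3.3 and SciPy 1.17.1. Median-of-ratios factors were 0.706 to 1.38.

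The named genes are, per comparison, the 3 largest called rises and falls without overlap (for differences of changes, the 3 largest called each way), each with a mean of 10 TPM or more, plus a fixed set (stalk, paralog pairs, X-linked and other known genes) and up to 4 called genes per other list. Rps7, Rpl24, Rps4l, Rpl37a, Rpl21, Rpl22 in the differences of changes, Rpl35a untreated Rpl7l1 in C57, the pseudogenes outside the members, and Rps10 and Rps18 (sequence only) were named after their values were seen. Members, lists and rule were chosen with earlier results of these data known.

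The design text says that cultures came from individual mice, so LPS and untreated libraries of 1 strain and number were taken as pairs; the fit above leaves the pairs out, and the replicate block is an alternative. Deviations from the group means correlated within the 12 pairs at r from 0.0513 to 0.176, and in 10 of the 12 the partner was the best match. No 2 libraries held identical values (0 pairs). The alternatives tried were 0.1 TPM as pseudocount, no filter on low values or one at 5 TPM, median-of-ratios and quantile scaling, TPM without structural RNA, copies added, other moderation, only the groups compared, a replicate block, replicate subsets and each library left out.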

Additional observations from a re-analysis of the deposited data

Results flagged for a closer look

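In groups of 4 libraries, 2 of 126 group values tested had 1 library apart from the others by Dixon's criterion, fewer than the 1 in 20 that chance gives. Rps6 stood at 643.2 TPM in 1 library of B6 with LPS, against 587.8 to 592 TPM in the other 3. The pseudogene Rps4l stood at 4.688 TPM in 1 library of B6 with LPS, against 6.127 to 6.355 TPM in the others.

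The change with LPS differed between strains by the test of the difference itself for 12 values of the named genes. For PWD minus B6 the differences were 0.574 for Rpl13a, 0.4892 for Rpl10a, 0.4353 for Rpl28 and 0.3588 for Rpl37a on the log2 scale. For C57 minus B6 they were 0.4603 for Rpl28, 0.4179 for Rpl13a, 0.3514 for Rpl24, 0.3383 for Rpl21, 0.3128 for Rpl22 and -0.5534 for Rps27l. For PWD minus C57 they were 0.5481 for Rps27l and 0.3989 for Rpl37a. Under median-of-ratios scaling the calls of Rpl10a, of Rps27l in both comparisons and of Rpl37a for PWD minus C57 held, and the other 8 were lost.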

How the results depend on the processing

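The count of members called with LPS (80 in B6, 74 in C57, 59 in PWD) was 29, 25 and 36 under median-of-ratios scaling, 43 in C57 with replicates 3 and 4 alone and 25 in PWD with replicates 1 and 2 alone. For C57 minus B6 with LPS (40), the count was 81 under median-of-ratios scaling and 22 with replicates 3 and 4. For the difference of LPS changes, PWD minus B6 (13) gave 5 under median-of-ratios scaling, 46 under quantile normalization, 41 without structural RNA and 23 with replicates 1 and 2; C57 minus B6 (6) gave 17, 29 and 26 under those scalings, 0 with replicates 1 and 2 and 15 with 3 and 4; and PWD minus C57 (2) gave 16, 14 and 14 under those scalings, 27 with replicates 1 and 2 and 4 with 3 and 4. With the replicate block, C57 minus B6 gave 3, and no other count of members moved by more than 1.5 times; the block ended the calls of Rpl21, Rpl22 and Rpl24 there, made those of Rps27l with LPS in PWD and B6, and changed no other named gene's call. Among the other lists, median-of-ratios scaling gave 89 called genes with LPS in PWD and 37 for the difference PWD minus C57. The shares of all genes under median-of-ratios scaling are given above. For quantile normalization, TPM without structural RNA and the replicate subsets they are not given here. Counts under those settings can therefore not be read as particular to the members. The cause was not tested.

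Leaving out 1 library gave 80 to 81 members with LPS in B6, 66 to 74 in C57 and 51 to 65 in PWD; 49 to 67 untreated and 28 to 49 with LPS for C57 minus B6; 63 to 72 and 49 to 60 for PWD minus B6; 42 to 46 and 45 to 55 for PWD minus C57; and 3 to 11, 8 to 24 and 1 to 4 for the differences of changes (C57 minus B6, PWD minus B6, PWD minus C57).

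The log2 summed level under median-of-ratios scaling changed with LPS by 0.1118 in B6, 0.02448 in C57 and 0.1247 in PWD; it differed by -0.6108 untreated and -0.5978 with LPS for PWD minus B6, and by -0.5301 and -0.6174 for C57 minus B6. With pseudogenes added by name, or by name or sequence, PWD minus B6 became -0.3228 or -0.2438 untreated and -0.1189 or -0.03807 with LPS, and PWD minus C57 0.0009762 or 0.07649 untreated and 0.09873 or 0.1774 with LPS.

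Single genes that reversed did so with copies added, except Rps27l with LPS in C57 under median-of-ratios scaling (0.04303). With copies matched by name or sequence, Rpl35a gave 0.1559 with LPS and 0.008821 untreated for PWD minus B6 and 0.5718 and 0.4577 for PWD minus C57, and Rpl37 0.6499 and 0.2308 for PWD minus B6; named copies gave Rpl35a 0.3862 and 0.2644 for PWD minus C57. Rps26 gave 0.9445 and 0.6624 for PWD minus B6 and 1.08 and 1.091 for PWD minus C57 with either. Without read depth, values under 1 TPM have an unknown counting error.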

Other observations

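Chaperones and assembly factors of ribosomal proteins, and the mitochondrial ribosomal proteins, had more members higher than lower in PWD and C57 with LPS than in B6. With LPS, 16 of the 22 chaperones and late assembly factors were called higher and 3 lower in PWD than in B6. In C57, 20 were higher and 1 lower than in B6. Of all genes, 49.7% and 49.1% were higher and 19% and 9.69% lower in these comparisons. The medians of the chaperones and assembly factors were 0.59 and 0.65, against 0.28 and 0.29 for all genes. Of the 49 large mitochondrial ribosomal proteins, 34 were higher and 4 lower in PWD with LPS than in B6, and 40 higher and 2 lower in C57 (medians 0.55 and 0.53). Of the 29 small ones, 19 were higher and 2 lower in PWD and 22 higher and 1 lower in C57 (medians 0.44 and 0.54). Under median-of-ratios scaling, the chaperones gave 12 higher and 4 lower in PWD and 14 and 2 in C57. The large mitochondrial proteins gave 25 and 10 in PWD and 21 and 8 in C57. The small ones gave 12 and 6 in PWD and 10 and 5 in C57. Of all genes, that scaling gave 35.4% higher and 34.2% lower in PWD, and 28.4% and 28.7% in C57. The cytosolic ribosomal proteins had medians of -0.24 and -0.18 in the same comparisons.

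The LPS change of the chaperones and assembly factors was called higher in PWD than in B6 for 8 and lower for 1, and higher in C57 than in B6 for 11 and lower for 1, where 16% and 10.9% of all genes were higher and 7.5% and 3.39% lower. Under median-of-ratios scaling the counts were 8 higher and 2 lower in PWD and 11 and 1 in C57. Of all genes, that scaling gave 14.9% higher and 16.8% lower in PWD, and 10.9% and 14.3% in C57. As deposited, the median differences of the chaperones and assembly factors were 0.42 and 0.45, against 0.14 and 0.12 for all genes. The comparisons with B6 share its libraries.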
